A study of Mus musculus with 14 samples.

Results

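*Igsf8* and *Ptgfrn*, the genes of the EWI proteins IGSF8 and PTGFRN, and 8 tetraspanin genes, *Cd9*, *Cd81*, *Cd82*, *Cd151*, *Tspan2*, *Cd63*, *Cd53* and *Cd37*, were read in CD11b+ microglia/macrophages of injured mouse brains. The 10 genes were taken by symbol from the 33939 genes of the table, and each was found and passed the filter on low values in each comparison. The cells were isolated with magnetic beads from the contralateral (CL) and ipsilateral (IL) hemispheres at 3 days after traumatic brain injury (TBI, a controlled cortical impact). Control (Ctrl) mice were Cx3cr1-CreER+/- and knockout (cKO) mice were Cx3cr1-CreER+/- with a floxed target gene on both alleles, all males of 8 to 12 weeks on C57BL/6, and both genotypes had received tamoxifen. The Cre is driven by *Cx3cr1*, so it acts in microglia and in other cells with an active *Cx3cr1* gene, and a waiting time after tamoxifen let peripheral monocytes be replaced. Ctrl mice gave 4 CL and 4 IL libraries and cKO mice 3 of each, in all 14 libraries from 8 mice, of which 6 gave both hemispheres.

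Tetraspanins are small proteins that cross the membrane several times and gather other membrane proteins into shared patches. IGSF8 and PTGFRN are immunoglobulin-domain proteins that bind the tetraspanins CD9 and CD81 directly, and they link these patches to the cortical actin through ezrin, radixin and moesin. Tetraspanins are known for roles in adhesion, cell fusion and the formation of extracellular vesicles, and CD9, CD63 and CD81 are common vesicle markers.

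Values are CPM, reads per 1e+06 reads assigned to genes in a library, and the libraries held 12.2 to 41.6 M reads (1 M being 1e+06). Fold changes were fitted with limma on log2(scaled CPM + 1), and a called gene had both an adjusted p (Benjamini-Hochberg, over all genes tested) of at most 0.05 and a change of 1.2 times or more. The summed CPM of 8 microglia markers was 33649 to 38023 in the CL and 18650 to 22982 in the IL libraries of Ctrl mice, and 33468 to 36511 (CL) and 19817 to 21735 (IL) in cKO mice. The summed CPM of 7 monocyte markers was 114 to 694, 562 to 868, 110 to 305 and 555 to 762 in the same order of groups, and that of 7 neutrophil markers was 458 to 6046, 138 to 806, 454 to 1294 and 185 to 280. Fewer cells of a type and less RNA per cell cannot be told apart in such libraries, and the part of these shifts in the results below was not tested. IL against CL and cKO against Ctrl use the same libraries in part, so those results are not independent of each other.

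The sequences that place *Igsf8* and the members that differed between hemispheres come next. The study's RT-qPCR primers for *Igsf8* both match 3 of its 8 GENCODE transcripts and bound a product of 101 bases in the coding part. The forward primer crosses an exon junction of the plus-strand gene, with 13 bases at chr1:172312581-172312593 and 10 bases, shown in capitals, at chr1:172316151-172316160 of GRCm38. The reverse primer lies within the later of these exons, at chr1:172316218-172316238.
*Igsf8* forward primer: ctgctaatacttgGAACCAGGTG
*Igsf8* reverse primer: acgttgcaggagatagagaca

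The 250 bases before the RefSeq start (GRCm38.p6) are shown for *Igsf8*, *Ptgfrn* and *Cd63*, which were higher in IL than in CL hemispheres under at least 1 of the fits below, and for *Cd37*, which was lower. *Cd81*, *Cd151* and *Tspan2*, also called lower in Ctrl mice in a paired or joint fit, are not shown. Capitals mark GGGCGG (a GC box), GAGGAA (the core bound by ETS factors such as PU.1) and CACGTG (an E-box), searched on both strands together with TGANTCA (bound by AP-1), the box CCAAT (bound by NF-Y) and TATAAA (a core promoter element). No match of these motifs overlapped another in the windows shown.
Igsf8, chr1:172312117-172312366, plus strand: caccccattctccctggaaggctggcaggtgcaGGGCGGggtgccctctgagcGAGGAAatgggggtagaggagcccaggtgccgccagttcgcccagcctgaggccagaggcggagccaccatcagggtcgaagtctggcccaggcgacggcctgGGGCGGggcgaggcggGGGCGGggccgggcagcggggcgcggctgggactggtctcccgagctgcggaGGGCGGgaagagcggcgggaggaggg
Ptgfrn, chr3:101110167-101110416, minus strand: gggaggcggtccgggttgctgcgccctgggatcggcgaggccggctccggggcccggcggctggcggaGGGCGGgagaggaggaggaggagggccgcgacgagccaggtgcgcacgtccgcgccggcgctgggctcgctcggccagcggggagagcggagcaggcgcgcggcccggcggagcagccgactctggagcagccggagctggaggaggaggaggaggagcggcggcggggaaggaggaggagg
Cd63, chr10:128909095-128909344, plus strand: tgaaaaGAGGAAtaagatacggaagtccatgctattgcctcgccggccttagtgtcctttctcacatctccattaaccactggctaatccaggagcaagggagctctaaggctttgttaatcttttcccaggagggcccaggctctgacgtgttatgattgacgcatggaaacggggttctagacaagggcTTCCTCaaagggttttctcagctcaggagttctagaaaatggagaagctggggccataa
Cd37, chr7:45238840-45239089, minus strand: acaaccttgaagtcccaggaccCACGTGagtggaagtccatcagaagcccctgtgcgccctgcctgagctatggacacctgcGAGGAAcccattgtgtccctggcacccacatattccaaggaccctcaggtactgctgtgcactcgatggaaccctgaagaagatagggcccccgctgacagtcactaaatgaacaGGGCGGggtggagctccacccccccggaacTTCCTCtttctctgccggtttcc

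The *Igsf8* window held GGGCGG at 4 positions and GAGGAA at 1, and its GC content was 74.8% against a median of 52.4% over 32851 promoter windows. The *Ptgfrn* window, with 79.2% GC, held GGGCGG at 1 position. The *Cd63* window held GAGGAA at 2 positions and no GGGCGG, and the *Cd37* window held GGGCGG at 1, GAGGAA at 2 and CACGTG at 1. Of all promoter windows, 32.7% held GGGCGG, 23.3% GAGGAA, 6.02% CACGTG, 6.75% TGANTCA, 33.8% CCAAT and 12.4% TATAAA. Such matches describe the letters and do not show binding.

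The members covered a wide range of levels. Per kilobase of annotated exon and as the mean ± SD over all 14 libraries, *Cd81* stood at 969 ± 209 CPM, *Cd9* at 550 ± 113 CPM and *Cd53* at 525 ± 77.1 CPM. *Cd63* followed with 129 ± 59.2 CPM per kilobase and *Cd37* with 71.5 ± 13.9. *Cd82* was at 19.9 ± 7.45 CPM per kilobase and *Igsf8* at 17.2 ± 3.41. *Cd151* at 3.01 ± 2.99, *Tspan2* at 0.556 ± 0.297 and *Ptgfrn* at 0.462 ± 0.133 CPM per kilobase were the lowest. Of the neighbours in this order, *Cd9* and *Cd53*, *Cd63* and *Cd37*, *Cd82* and *Igsf8*, *Cd151* and *Tspan2*, and *Tspan2* and *Ptgfrn* differed by less than the larger of their SDs. This order did not hold in each group. *Cd37* stood above *Cd63* in both CL groups (85.7 against 82.6 CPM per kilobase in Ctrl, 82.2 against 75.3 in cKO), *Igsf8* above *Cd82* in both IL groups, *Cd53* above *Cd9* in Ctrl IL, and *Ptgfrn* above *Tspan2* in Ctrl IL and cKO CL libraries. The *Cd63* values leave out the reads assigned to its near-identical copy *Cd63-ps*, at 0.729 to 0.786 times *Cd63*. The place of *Cd63* against *Cd37* is therefore uncertain. Of the EWI members *Igsf8* was the more abundant, and the tetraspanins that bind it, *Cd9* and *Cd81*, were among the 3 highest members.

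**Figure D1:**
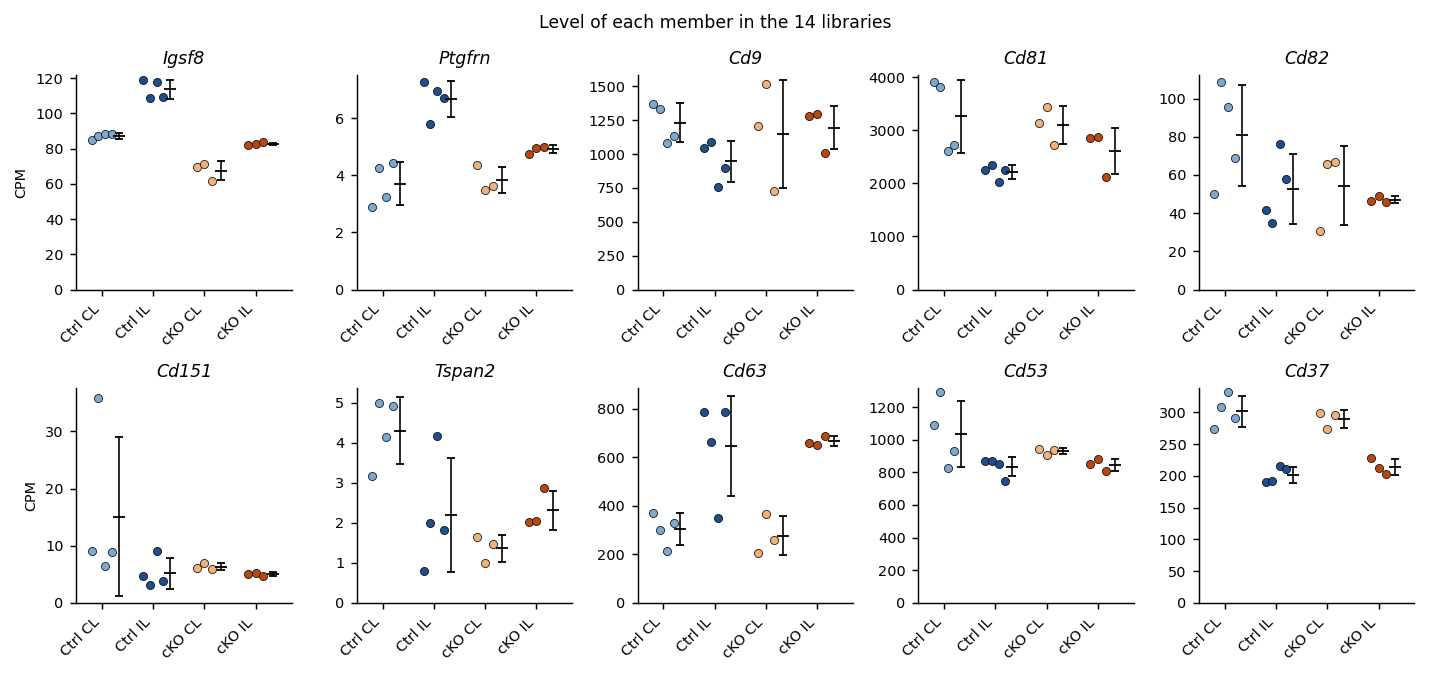
CPM of the 10 members (y axes, from 0) in the 14 libraries, by group (x axis). Points are libraries and the bars beside them are mean ± SD (n = 4 Ctrl, n = 3 cKO); the *Igsf8* libraries of the 4 groups form separate bands, while those of *Cd82* overlap in each of the 4 comparisons.

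The levels of *Igsf8*, whose protein shapes motility and adhesion through its tetraspanin partners, stood higher in IL than in CL hemispheres of both genotypes and lower in cKO than in Ctrl libraries of both hemispheres. Of these differences only that between the cKO hemispheres was called in the unpaired fit. *Igsf8* lies at chr1:172261641-172319841 on the plus strand. The Ctrl CL libraries held 84.7, 87.2, 88.2 and 88.2 CPM (mice 3541, 3545, 3546 and 3551). The Ctrl IL libraries held 119, 109, 118 and 109 CPM in the same order of mice. The cKO CL libraries held 69.5, 71.3 and 61.4 CPM (mice 788, 791 and 3592), and the cKO IL libraries held 82.3, 82.5 and 83.5 CPM (mice 784, 791 and 3592). No library of a group overlapped with those of another group in any of the 4 comparisons. By group mean ± SD the order was Ctrl IL (114 ± 5.42, n = 4), Ctrl CL (87.1 ± 1.66, n = 4), cKO IL (82.8 ± 0.658, n = 3) and cKO CL (67.4 ± 5.32 CPM, n = 3). Ctrl CL and cKO IL, next to each other in this order, differ in both genotype and hemisphere and were not compared by a test.

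In Ctrl mice the IL against CL difference was 0.45 ± 0.15 on the log2 scale (SE), a fold of 1.37, with an adjusted p of 0.0996. It passed the test after upper-quartile scaling, without any scaling of the CPM and after scaling from the genes past the filter (adjusted p = 0.0371, 0.0395 and 0.0453), the last of these chosen after seeing the data. When the mouse was a term of the fit, which sets each IL library against the CL library of the same animal, the SE was 0.08 and the adjusted p 0.00966. The 4 Ctrl mice had within-mouse differences between 0.41 and 0.58, all upwards. In cKO mice the difference was 0.38 ± 0.10 (fold 1.30, adjusted p = 0.0335), and the mice with both hemispheres, 791 and 3592, had 0.39 and 0.46. In the paired fit, where only these 2 mice carry the contrast, the cKO difference was 0.43 ± 0.13 with an adjusted p of 0.0637. Without any 1 of the 6 cKO libraries except the CL library of mouse 788, the unpaired call was lost, with differences between 0.31 and 0.43 and adjusted p between 0.0531 and 0.115. The difference between hemispheres did not differ detectably between genotypes (interaction -0.08, 95% confidence interval -0.45 to 0.29, adjusted p = 1).

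Between genotypes, the log2 fold change of *Igsf8* in cKO against Ctrl was -0.44 ± 0.12 (SE) in IL hemispheres (95% interval -0.72 to -0.16, adjusted p = 0.25). In CL hemispheres it was -0.38 ± 0.15 (interval -0.71 to -0.04, adjusted p = 0.429). Neither difference was called over all genes. A joint fit of the 14 libraries that took the mouse as random gave adjusted p of 0.0995 in IL and 0.158 in CL hemispheres.

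The library kit does not keep the strand, so reads in exon bases shared with a gene of the opposite strand cannot be told apart. *Igsf8* has 453 such shared bases. Other members with shared bases are *Cd9* with *Gm26728* (218 bases, mean 1.47 CPM over all libraries), *Cd151* with *Gm10575* (193 bases, 1.75 CPM), *Cd81* with *R74862* (104 bases, 5.13 CPM), *Tspan2* with *Tspan2os* (88 bases) and *Cd37* with *Tead2* (13 bases, 0.677 CPM).

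*Ptgfrn*, the other EWI member, which takes its name from an effect on the prostaglandin F receptor and binds CD9 and CD81, also stood higher in IL hemispheres. It lies at chr3:101040232-101110278 on the minus strand. Ctrl CL libraries held 2.88, 4.26, 3.25 and 4.42 CPM, and Ctrl IL libraries 7.25, 5.80, 6.95 and 6.70 CPM, in the order of mice 3541, 3545, 3546 and 3551. The cKO CL libraries held 4.34, 3.49 and 3.64 CPM, and the cKO IL libraries 4.74, 4.97 and 5.002 CPM. IL libraries lay above all CL libraries in both genotypes. In Ctrl mice the change was 0.78 ± 0.20 (SE, log2 scale, fold 1.72, adjusted p = 0.0455, and 0.0249 with the mouse as a term). Without any 1 of the 8 Ctrl libraries except the IL library of mouse 3546 the unpaired call was lost, with changes between 0.67 and 0.89 and adjusted p between 0.0523 and 0.16. In cKO mice it was 0.36 ± 0.17 (adjusted p = 0.157) and was not called. The difference of these responses, -0.42 (interval -0.96 to 0.13), had an adjusted p of 1. In IL hemispheres the cKO libraries lay below all Ctrl libraries (-0.36 ± 0.17, adjusted p = 0.585), and in CL hemispheres they overlapped.

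In Ctrl mice 2 of the 10 members were called between IL and CL hemispheres, *Ptgfrn* higher and *Cd37* lower, while 6.65% of all genes tested were called (3.68% higher, 2.97% lower). The paired fit called 5 members, *Igsf8*, *Ptgfrn* and *Cd63* higher and *Cd81* and *Cd37* lower, and 20.5% of all genes (9.85% higher, 10.6% lower). The joint fit with a random mouse called 6 members, *Igsf8*, *Ptgfrn* and *Cd63* higher and *Cd151*, *Tspan2* and *Cd37* lower, against 23% of all genes. The libraries of 4 members did not overlap (2 higher, 2 lower), which holds for 17.7% of all genes (6.26% higher, 11.4% lower). The median log2 fold change of the members was -0.39 against -0.04 over all genes tested. In cKO mice 2 members were called, *Igsf8* and *Cd63*, both higher, against 22.3% of all genes (12.7% higher, 9.54% lower). There the paired fit called *Cd63* alone, against 13.9% of all genes (8.93% higher, 4.96% lower), and the joint fit called *Igsf8*, *Cd63* and *Cd37*, against 16.8%. In cKO mice 7 members did not overlap (4 higher, 3 lower), which holds for 42.4% of all genes (18.1% higher, 24.3% lower). The members' median in cKO mice was 0.08 against 0.02 over all genes, and it was -0.00249 with the CPM as deposited. Higher genes made up 55.3% of all calls in Ctrl and 57.2% in cKO mice, and 43.4% in both with the CPM as deposited.

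**Figure D2:**
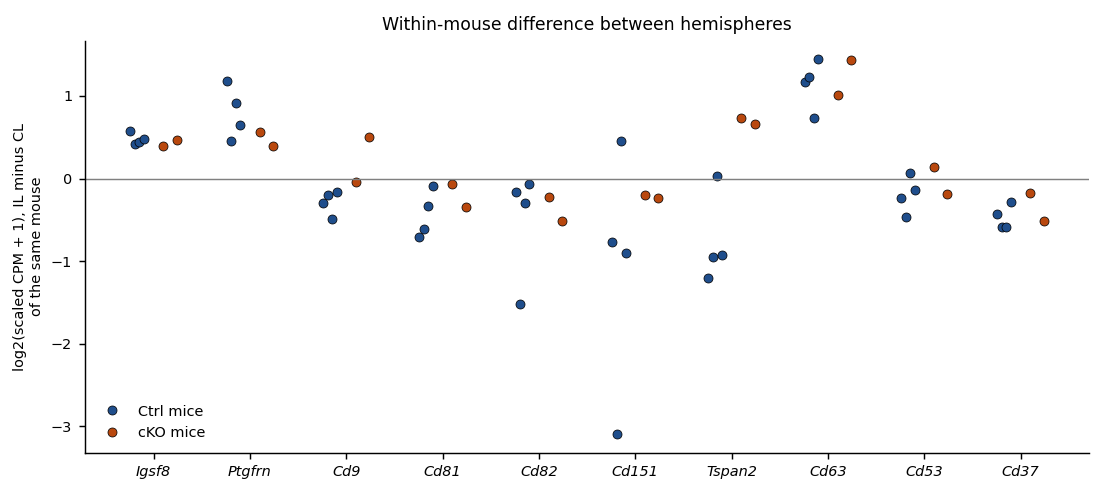
Difference between the IL and the CL library of the same mouse on the log2(scaled CPM + 1) scale (y axis) for the 10 members (x axis), with 4 Ctrl and 2 cKO mice as points. *Igsf8*, *Ptgfrn* and *Cd63* lie above 0 in all 6 mice, and *Cd81*, *Cd82* and *Cd37* below 0 in all 6.

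*Cd63*, a tetraspanin of late endosomes, lysosomes and secreted vesicles, had the highest log2 fold change between hemispheres among the members in both genotypes. It lies at chr10:128900989-128912822 on the plus strand. Ctrl CL libraries held 371, 302, 216 and 328 CPM, and Ctrl IL libraries 786, 665, 350 and 788 CPM, in the order of mice 3541, 3545, 3546 and 3551. The cKO CL libraries held 207, 365 and 259 CPM (mice 788, 791 and 3592), and the cKO IL libraries 660, 650 and 689 CPM (mice 784, 791 and 3592). The Ctrl IL library of mouse 3546, at 350 CPM and with the fewest reads of the series (12.2 M), overlapped the Ctrl CL range, while the cKO groups stayed apart. In Ctrl mice the change was 1.12 ± 0.33 (SE, log2 scale, fold 2.17) with an adjusted p of 0.0788. In the paired fit it was 1.12 ± 0.12 with an adjusted p of 0.00117, and mouse 3546 was the lowest Ctrl mouse in both hemispheres. Without the IL library of mouse 3546 the unpaired change was 1.45 ± 0.24 with an adjusted p of 0.00444. In cKO mice it was 1.38 ± 0.18 (fold 2.61, adjusted p = 0.00271, and 0.00309 with the mouse as a term). The interaction was 0.26 (interval -0.71 to 1.24), and the genotypes differed by 0.13 in IL and by -0.15 in CL hemispheres (adjusted p = 0.964 and 0.865).

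The *Cd63* value is uncertain in its level, because a near-identical copy took a large share of the reads. *Cd63-ps*, an annotated transcribed processed pseudogene, matches the *Cd63* transcript over 858 bases with 98.0% identity. It averaged 233 ± 54.5 CPM (SD) in the CL and 504 ± 169 in the IL libraries of Ctrl mice, and 209 ± 54.1 (CL) and 511 ± 24.0 (IL) in cKO mice. Its ratio to *Cd63* stayed between 0.729 and 0.786 in all 14 libraries. Summed, the copies averaged 537 ± 120 (CL) and 1151 ± 376 CPM (IL) in Ctrl mice and 487 ± 135 (CL) and 1177 ± 43.3 CPM (IL) in cKO mice. Fitted as a sum, an alternative chosen after seeing the data, the change was 1.13 ± 0.34 in Ctrl mice (adjusted p = 0.0848, and 0.00129 with the mouse as a term) and 1.39 ± 0.18 in cKO mice (adjusted p = 0.00272). The fitted changes with and without the copy differed by less than their SE, while the share of reads that belongs to each copy is not settled.

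**Figure D3:**
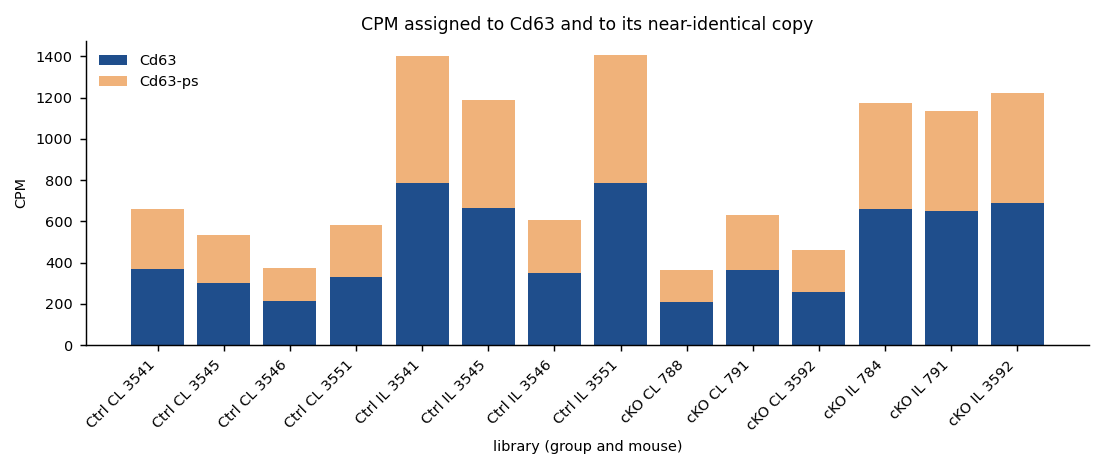
Stacked bars of the CPM (y axis, from 0) assigned to *Cd63* and to *Cd63-ps* in each of the 14 libraries (x axis, group and mouse). The copy makes up a like share of each bar, at 0.729 to 0.786 times *Cd63*, and both parts are taller in IL than in CL libraries of the same mouse.

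*Cd81* and *Cd9*, the tetraspanins that bind EWI proteins, were lower in IL than in CL hemispheres in each of the 4 Ctrl mice. *Cd81*, at chr7:143052739-143067934 on the plus strand, held 3904, 3814, 2604 and 2721 CPM in Ctrl CL and 2249, 2338, 2024 and 2256 CPM in Ctrl IL libraries. All Ctrl IL libraries lay below the Ctrl CL libraries. The change was -0.46 ± 0.25 (SE, adjusted p = 0.348), or ± 0.13 with the mouse as a term (adjusted p = 0.0421). In cKO mice *Cd81* held 3141, 3440 and 2725 CPM in CL and 2852, 2877 and 2114 CPM in IL libraries, which overlapped (-0.17 ± 0.23, adjusted p = 0.63).

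*Cd9*, known for its role in sperm and egg fusion and as a platelet and myeloid surface protein, held 1085 to 1371 CPM in Ctrl CL and 756 to 1087 CPM in Ctrl IL libraries. The within-mouse differences of the 4 Ctrl mice were -0.49 to -0.16, with an adjusted p of 0.53 (0.0575 with the mouse as a term). The cKO CL libraries spread from 726 to 1516 CPM and enclosed the cKO IL libraries (1011 to 1294 CPM), and the pairs of the 2 cKO mice went in opposite directions (-0.04 and 0.50). A processed pseudogene, *Cd9-ps*, matches *Cd9* over 665 bases with 91.1% identity and averaged between 4.92 and 6.69 CPM in the groups, well below *Cd9*.

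*Cd82*, a tetraspanin that restrains motility, ranged from 49.8 to 109 CPM in Ctrl CL and from 34.9 to 76.2 CPM in Ctrl IL libraries, and from 30.4 to 67.0 and 45.7 to 49.1 CPM in the cKO groups. The within-mouse differences were below 0 in all 6 mice with both hemispheres, from -1.52 to -0.07, and *Cd82* was not called in any comparison (adjusted p = 0.274 in Ctrl, 0.935 in cKO). *Cd151*, a partner of laminin-binding integrins, held 9.09, 35.9, 6.53 and 8.90 CPM in Ctrl CL libraries, with mouse 3545 far above the others. The other groups ranged from 3.16 to 9.16, 5.88 to 7.06 and 4.77 to 5.30 CPM (Ctrl IL, cKO CL and cKO IL). Its change in Ctrl mice, -1.10 ± 0.50 (SE, adjusted p = 0.243), was -0.53 without the CL library of mouse 3545. The joint fit with a random mouse, which holds that library, called it (-1.08 ± 0.37, adjusted p = 0.0485). That library also had the highest summed CPM of 6 endothelial markers in its group, 223 against 89.8 to 213 in the other 3 libraries. The library at 213, of mouse 3541, held 9.09 CPM of *Cd151*. The part of these markers in the *Cd151* value was not tested.

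*Tspan2*, a tetraspanin best known from oligodendrocytes, was the only member called between genotypes, in CL hemispheres. It lies at chr3:102734529-102801513 on the plus strand. Ctrl CL libraries held 3.17, 4.99, 4.13 and 4.92 CPM, and cKO CL libraries 1.63, 0.983 and 1.47 CPM, in the orders of mice given above. All cKO CL libraries lay below the Ctrl CL libraries, with a log2 fold change of -1.17 ± 0.22 (SE, fold 0.446, adjusted p = 0.0385). Ctrl IL libraries held 0.797, 1.99, 4.17 and 1.81 CPM and cKO IL libraries 2.02, 2.04 and 2.87 CPM, which overlapped (0.17 ± 0.29, adjusted p = 0.953). *Tspan2* was lower in IL in 3 of 4 Ctrl mice and higher in IL in both cKO mice (0.66 and 0.73). Neither change between hemispheres was called in the unpaired fit (-0.78 ± 0.27, adjusted p = 0.132 in Ctrl, and 0.54 ± 0.18, adjusted p = 0.0653 in cKO). The interaction of 1.31 ± 0.37 had an adjusted p of 1 and an unadjusted p of 0.00289 by limma. It was the only member with an unadjusted p under 0.05 there, which 2.59% of all genes had. With a random mouse in the joint fit the interaction was 1.36 ± 0.30 and was not called (adjusted p = 0.295). The joint fit with a random mouse called *Tspan2* lower in IL of Ctrl mice (-0.76 ± 0.19, adjusted p = 0.00909). At these levels 1 read is worth 0.0240 to 0.0818 CPM, and the call was lost without the Ctrl CL library of mouse 3545 or 3551 and without any 1 of the 3 cKO CL libraries, with changes between -1.27 and -1.04 and adjusted p between 0.0764 and 0.266. It was also lost with the CPM as deposited (adjusted p = 0.0511) and with no filter on low values (0.163).

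The summed CPM of 8 oligodendrocyte markers was 222 to 315 in Ctrl CL and 177 to 217 in cKO CL libraries, which did not overlap, and 177 to 253 and 206 to 248 in Ctrl IL and cKO IL libraries. None of the 8 was at 0 in every library. *Mobp*, a myelin gene of the list, was called lower in cKO CL (-1.70 ± 0.33, adjusted p = 0.0465), and it was the only called gene among the 7 of its list tested there, against 0.875% of all genes. The other 6 did not pass the test, among them *Cnp* (-0.08, adjusted p = 0.871). The median log2 fold change of the 7 tested markers was -0.68, against -0.06 over all genes tested. The part of this in the *Tspan2* result was not tested.

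Of the leukocyte tetraspanins, *Cd37* was called between the hemispheres of Ctrl mice and *Cd53* was not. *Cd37*, which is found on B cells and other leukocytes, held 275, 309, 332 and 292 CPM in Ctrl CL and 191, 192, 215 and 211 CPM in Ctrl IL libraries (mice 3541, 3545, 3546 and 3551). The cKO CL libraries held 300, 273 and 295 CPM, and the cKO IL libraries 227, 212 and 203 CPM. IL libraries lay below all CL libraries in both genotypes. *Cd37* fell in Ctrl mice, with a log2 fold change of -0.50 ± 0.13 (SE, fold 0.707), with an adjusted p of 0.0497 (0.00715 with the mouse as a term). Without any 1 of the 8 Ctrl libraries except the CL library of mouse 3551 the unpaired call was lost, with changes between -0.56 and -0.42 and adjusted p between 0.088 and 0.136. In cKO mice the change was -0.35 ± 0.11 with an adjusted p of 0.0543, and it was called with the other scalings (adjusted p = 0.011 to 0.0345). Markers of B cells were low in all libraries, at 16.3 to 43.9 summed CPM over 6 genes, with no overlap between CL and IL libraries in either genotype. They summed to 29.1 to 43.9 (CL) and 19.9 to 28.3 CPM (IL) in Ctrl mice, and to 25.1 to 26.0 (CL) and 16.3 to 21.7 CPM (IL) in cKO mice. Their part in the *Cd37* result was not tested.

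*Cd53*, a tetraspanin of nearly all leukocytes, ranged from 828 to 1291 (CL) and 748 to 872 CPM (IL) in Ctrl mice, and from 909 to 940 (CL) and 807 to 880 CPM (IL) in cKO mice. Its log2 changes between hemispheres were -0.22 ± 0.23 and -0.05 ± 0.13 in Ctrl and cKO mice (adjusted p = 0.673 and 0.811).

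Between genotypes, *Tspan2* in CL hemispheres was the only call among the members. In IL hemispheres 0 of 10 members were called by limma, against 0.658% of all genes (0.356% higher, 0.302% lower), or 1% in the joint fit with a random mouse. *Igsf8* was the 1 member with an unadjusted p under 0.05 there, which 8.93% of all genes had. The libraries of *Igsf8* and *Ptgfrn* did not overlap, both lower in cKO, and 10.3% of all genes did not overlap in either direction (4.85% higher, 5.48% lower). In CL hemispheres 1 of 10 was called, *Tspan2*, against 0.875% of all genes (0.465% higher, 0.41% lower), or 1.59% in the joint fit, which called *Tspan2* too. The libraries of 2 members did not overlap there, *Igsf8* and *Tspan2*, both lower, against 10% of all genes (3.98% higher, 6.04% lower). The members' median was 0.09 in IL and -0.16 in CL hemispheres, against 0.01 and -0.06 over all genes tested. No member and no other gene was called for the interaction (0 of 18476 genes, with 479, or 2.59%, at an unadjusted p under 0.05 by limma, and 3, or 0.0162%, called in the joint fit with a random mouse).

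**Figure D4:**
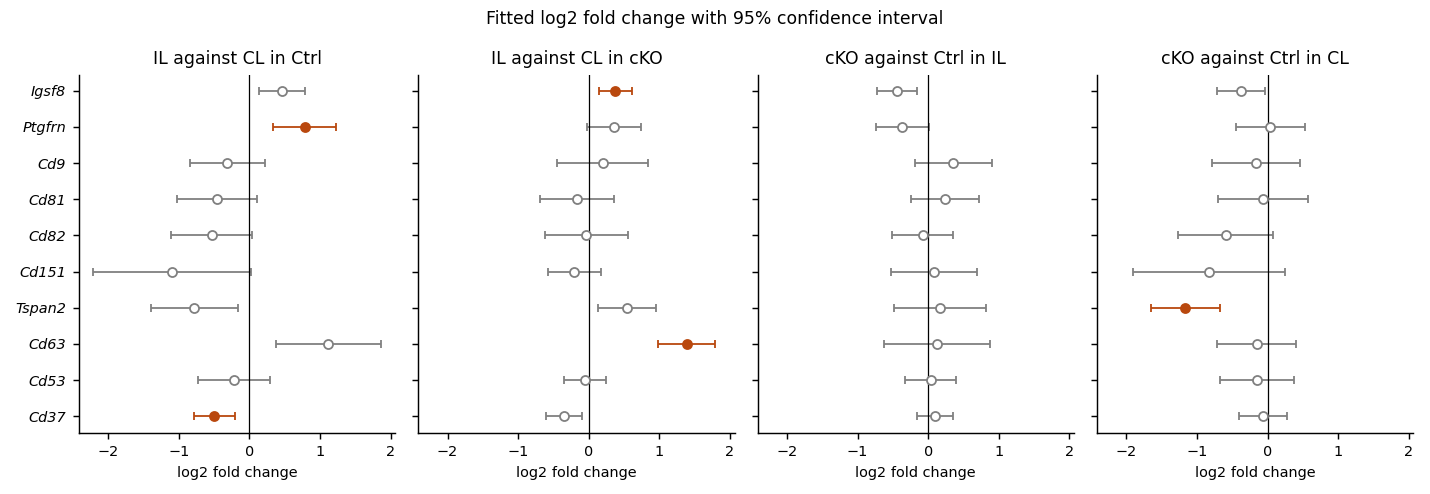
Fitted log2 fold change (x axis) of the 10 members (y axis) in the 4 comparisons, with 95% confidence intervals from limma, where filled points are called. The intervals for *Igsf8* do not reach 0 in any panel, but only that of IL against CL in cKO belongs to a called value.

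The genes around *Igsf8* were read for the same contrast of genotypes. Within 1 Mb of it, 95 other genes are annotated and 42 were tested in IL and 43 in CL hemispheres. In IL hemispheres 4 of the 42 were called, *Slamf1*, *Usf1* and *F11r* lower and *Kcnj10* higher in cKO, against 0.658% of all genes. In CL hemispheres 3 of the 43 were called, *Slamf1*, *Usf1* and *F11r*, all lower, against 0.875% of all genes. *F11r*, a junctional adhesion molecule, had log2 fold changes of -1.07 ± 0.12 in IL (adjusted p = 0.00534) and -1.10 ± 0.18 in CL hemispheres (adjusted p = 0.0163). *Usf1*, a transcription factor, had log2 fold changes of -1.46 ± 0.13 and -1.42 ± 0.19 (adjusted p = 0.00197 and 0.00406). *Slamf1*, a receptor of immune cells, fell between CL groups, from a mean of 10.5 CPM in Ctrl to 1.44 CPM in cKO libraries (-2.32 ± 0.29, adjusted p = 0.00291). *Kcnj10*, a potassium channel of glia, averaged 1.36 CPM (Ctrl) and 6.51 CPM (cKO) in IL libraries (1.70 ± 0.24, adjusted p = 0.021). The libraries of 12 of the 42 genes lay lower in cKO without overlap in IL hemispheres and 2 lay higher, and in CL hemispheres 10 of 43 lay lower and 2 higher. Over all genes 5.48% lay lower and 4.85% higher in IL, and 6.04% lower and 3.98% higher in CL hemispheres. The median of the neighbours was -0.18 in IL and -0.29 in CL hemispheres, against 0.01 and -0.06 over all genes tested.

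**Figure D5:**
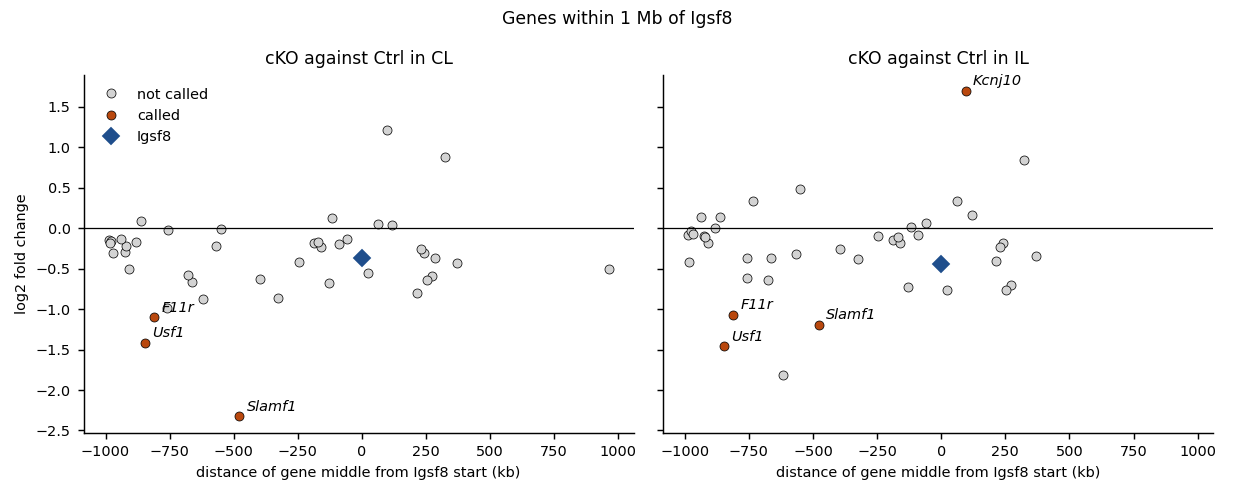
Fitted log2 fold change of cKO against Ctrl (y axis) for the tested genes within 1 Mb of *Igsf8*, by the distance of their middle from its start in kilobases (x axis), in CL (left) and IL (right) hemispheres. Filled points are called genes and the diamond is *Igsf8*, which lies below 0 in both panels without being called.

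Over the 14 libraries, the genes most like *Igsf8* by Pearson's r of log2 values, among 9753 genes with a mean of at least 3, were *Cndp2* (r = 0.961), *Adk* (0.956), *Fcgr2b* (0.944), *Ifi211* (0.943) and *Rtcb* (0.941). These are a description over libraries that share groups and mice. *Fcgr2b* (chr1:170958617-170976547) and *Ifi211* (chr1:173896345-173913046) lie on the same chromosome as *Igsf8*, outside the 1 Mb window. All 5 had the group order of *Igsf8* for Ctrl IL, which was the highest mean, and cKO CL, which was the lowest. Among the members, r with *Igsf8* was 0.70 for *Cd63*, 0.15 for *Cd53*, 0.12 for *Cd9*, -0.09 for *Cd82*, -0.17 for *Cd81* and -0.56 for *Cd37*.

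Other genes of these families and pathways were read from 4 lists. Of 23 other tetraspanins, 18 were tested in Ctrl mice between hemispheres, where 1 was higher and 2 were lower in IL, and 19 in cKO mice, where 1 was higher and 5 were lower. *Upk1b*, known as a plaque protein of the bladder lining, fell from 126 to 30.5 CPM in Ctrl and from 218 to 35.1 CPM in cKO mice by group means (-1.98 ± 0.23, adjusted p = 0.00144, and -2.50 ± 0.22, adjusted p = 0.0018). *Tspan13* fell as well, with -0.79 ± 0.19 in Ctrl and -0.90 ± 0.19 in cKO mice (adjusted p = 0.035 and 0.0138). *Tspan17*, among the tetraspanins that partner the protease ADAM10, rose from 3.75 to 8.41 CPM in Ctrl mice (1.01 ± 0.24, adjusted p = 0.0336) and by 0.92 ± 0.25 in cKO mice (adjusted p = 0.0343). In cKO mice *Tspan18* was also among the 3 with the smallest p (-0.92 ± 0.17, adjusted p = 0.00832). Over all genes the shares called were 3.68% higher and 2.97% lower in Ctrl mice, and 12.7% higher and 9.54% lower in cKO mice. The medians of the list were -0.12 and 0.01, against -0.04 and 0.02 over all genes. The paired fit called 1 higher and 6 lower in Ctrl mice (all genes 9.85% and 10.6%), and 0 higher and 3 lower in cKO mice (all genes 8.93% and 4.96%).

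The 2 further EWI genes, *Igsf3* and *Cd101*, were not called in any comparison. *Cd101*, which dampens T cell activation, averaged 14.5 to 16.7 CPM over the groups, and *Igsf3* 0.215 to 1.01 CPM.

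Of 11 lateral partners and actin linkers, 2 were higher and 0 lower in IL of Ctrl mice, and 4 higher and 0 lower in cKO mice, where 3.68% (Ctrl) and 12.7% (cKO) of all genes were called higher and 2.97% and 9.54% lower. *Ezr*, encoding the linker ezrin, rose from 32.7 to 93.7 CPM in Ctrl (1.61 ± 0.22, adjusted p = 0.00266) and from 31.2 to 103 CPM in cKO mice (1.83 ± 0.22, adjusted p = 0.00233). *Actn4*, an actin crosslinker, rose by 0.54 ± 0.12 and 0.52 ± 0.09 (adjusted p = 0.0288 and 0.00559). *Itga4*, the alpha chain of the integrin VLA-4, rose in cKO mice by 0.97 ± 0.25 (adjusted p = 0.029). In the paired fit 5 were higher in Ctrl and 3 in cKO mice, against 9.85% and 8.93% of all genes.

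Of 12 genes of vesicle formation, 11 were tested between hemispheres, 2 were higher in IL of Ctrl mice and 4 in cKO mice, against 3.68% and 12.7% of all genes. None was lower, against 2.97% and 9.54%, by limma (0 of 11 in each genotype). *Sdcbp*, encoding syntenin, an adaptor that binds tetraspanins and syndecans, rose from 648 to 1352 CPM in Ctrl (1.14 ± 0.23, adjusted p = 0.0178) and from 603 to 1061 CPM in cKO mice (0.90 ± 0.12, adjusted p = 0.00301). *Pdcd6ip*, encoding ALIX, rose by 0.54 ± 0.13 in Ctrl mice (adjusted p = 0.0334). *Chmp4b* and *Flot2*, a subunit of the membrane scission complex and a raft scaffold, rose in cKO mice by 1.001 ± 0.19 and 0.66 ± 0.14 (adjusted p = 0.00886 and 0.0122). In the paired fit 3 were higher in each genotype, against 9.85% (Ctrl) and 8.93% (cKO) of all genes. None of the genes of the 4 lists was called between genotypes in either hemisphere by limma (of 43 tested, 1 in IL and 4 in CL hemispheres had an unadjusted p under 0.05, which 8.93% and 9.79% of all genes had).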

How the data were processed

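CD11b+ cells of 14 hemispheres from 8 mice were sequenced, in the groups given above. The authors made Smart Seq v4 libraries (paired-end, a kit that does not keep the strand), mapped the reads with STAR to mm10 (GRCm38) and quantified them in Partek Flow 8.0. The table that the authors deposited as raw counts sums to 1e+06 in every library, so its values are CPM. The reads per library, read from the step between low values (78.5% to 83.5% of them whole within a tolerance of 0.03), were 12.2 to 41.6 M, and 1 read is worth 0.0240 to 0.0818 CPM. The authors' tables of fold changes and p-values between genotypes were not used.

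Scaling factors (0.877 to 1.14 over the 14 libraries) were trimmed means of M-values of all genes, with 30% of M and 5% of A trimmed and values under 0.01 CPM as 0. Genes entered with the CPM of 10 reads at median depth (0.288 to 0.353 CPM) in the number of libraries of the smaller group. limma 3.58.1 (R 4.3.3) fitted log2(scaled CPM + 1) of the groups compared, with a trend. The threshold was an adjusted p of at most 0.05 with a change of 1.2 times or more. The mouse numbers pair the hemispheres because they come from the same animal. Deviations from group means correlated at 0.182 to 0.607 within the 6 mice and at -0.535 to 0.502 (median -0.215) in 19 other pairs. The deviations cancel out within each group, so positive values within mice bring negative ones in other pairs, and the ranges are not independent. The paired value is given where it changes a call. The mice numbered 784 and 788 were taken as different animals. Alternatives were other scalings (that from genes past the filter and the sum of *Cd63* and *Cd63-ps* were chosen after seeing the data), a pseudocount of 0.1, no filter, all 14 libraries in a fit, the mouse as a fixed or random term (consensus correlation 0.437), the adjusted p alone and leaving out each library.

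On simulated data for IL against CL in Ctrl (16860 genes), the fit called 14.9% of changes of 1.5 times, 76.1% of 2 times and 100% of 4 times. For cKO against Ctrl in IL (17066 genes) it called 5.97%, 67.2% and 100%. The simulated libraries were independent, with a single dispersion of the counts for all genes, and 67, 67 and 66 genes had these changes. The changed genes were drawn from those with a higher mean CPM than *Ptgfrn* and *Tspan2*. In the data many more genes were called between hemispheres, so the simulated shares need not hold there. Gene symbols, loci and overlaps came from GENCODE vM21, and 33802 of 33939 identifiers matched. Near copies were sought with blastn 2.17.0 (at least 90% identity over 200 bases). The text names the 10 members, at most 3 called genes picked per list and comparison, and the 5 genes most like *Igsf8*. A gene picked in a comparison can also be given in another where it was called. Called genes within 1 Mb of *Igsf8* and genes that overlap or copy a member are named too. Members and lists were chosen with earlier results of these data known. The p values measure the spread between these mice. Some genes, the targeted gene among them, are not reported here.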

Additional observations from a re-analysis of the deposited data

Results flagged for a closer look

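*Cd151* in the Ctrl CL library of mouse 3545, at 35.9 CPM, stood far from the other 3 Ctrl CL libraries (6.53 to 9.09 CPM), with a gap to the nearest library above Dixon's 95% critical share of the range for 4 samples. Chance alone passes this limit in about 1 of 20 groups, and 20 groups of 4 libraries were examined, 2 for each of the 10 members. Without this library the IL against CL change of *Cd151* in Ctrl mice was -0.53 in place of -1.10, and neither value was called in the unpaired fit. With the mouse as a random effect over all 14 libraries the change was -1.08 ± 0.37 and was called (adjusted p = 0.0485, limma).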

How the results depend on the processing

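Over the members and comparisons, 850 refitted log2 fold changes were set against those of the report. Of these 770 kept direction and side of the threshold, 33 lost a call, 22 gained one and 25 changed sign. Every sign change came when a library was left out, and none involved a value called in either fit. No scaling, pseudocount, filter or block turned a direction. In Ctrl mice the number of members called between hemispheres, 2 in the report, was 4 with the CPM as deposited, 1 with a pseudocount of 0.1, 0 without the filter, 4 with all 14 libraries in a fit, 6 with the mouse as a random effect (replicate block), 5 with the mouse as a fixed term, and 0 to 3 without each library. In cKO mice it was 1 in place of 2 without the filter, with all 14 libraries and with the mouse as a fixed term, and 1 to 2 without each library. It was 3 there with the mouse as a random effect, with upper-quartile scaling, with the CPM as deposited and with scaling from genes past the filter, the last chosen after seeing the data. Between genotypes in CL hemispheres it was 0 in place of 1 with the CPM as deposited and without the filter, and 0 to 1 without each library. With *Cd63* and *Cd63-ps* summed, chosen after seeing the data, these counts were 5 in Ctrl and 1 in cKO mice with the mouse as a fixed term. The cause of these shifts was not tested.

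The block changed no other call than those given beside the results. Log2 fold changes that changed sign without a library ranged, for IL against CL in cKO, from -0.11 to 0.43 (*Cd9*), -0.29 to 0.0378 (*Cd81*), -0.38 to 0.15 (*Cd82*) and -0.12 to 0.0465 (*Cd53*). For cKO against Ctrl in IL they ranged from -0.22 to 0.0516 (*Cd82*), -0.0532 to 0.29 (*Cd151*), -0.0563 to 0.38 (*Tspan2*), -0.21 to 0.28 (*Cd63*) and -0.0414 to 0.12 (*Cd53*). In CL hemispheres they ranged from -0.0570 to 0.14 (*Ptgfrn*), -0.39 to 0.16 (*Cd9*), -0.20 to 0.0868 (*Cd81*), -0.36 to 0.00656 (*Cd63*) and -0.29 to 0.00858 (*Cd53*). The interaction of *Cd63* ranged from -0.0793 to 0.47.

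Depth limits the lowest members. *Ptgfrn*, *Tspan2* and *Cd151* stood below 10 CPM in every library but the Ctrl CL library of mouse 3545 for *Cd151*, and their fold changes, on the log2(scaled CPM + 1) scale, are not ratios of CPM. Groups of 3 and 4 libraries leave differences of about 1.5 times mostly uncalled, as the simulated shares show.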
